A study of Mus musculus with 3 samples.

Results

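Leucine transport and sensing genes were followed across lymphocytes of the mouse colon. They are a fixed list of 10 genes, of 30905 in the count tables: Slc7a5, Slc3a2, Slc7a6, Sesn1, Sesn2, Sesn3, Fnip1, Rragc, Rragd and Eif4ebp1, all of which were found by symbol. The list was taken by name. It was chosen with earlier results of these data known, among them Fnip1 in B cells. Leukocytes bearing CD45 had been sorted from the colon and profiled with 10x Genomics 3′ v3.1 chemistry, in which a unique molecular identifier (UMI) marks each captured transcript. The labels give all 3 libraries an age of 6 to 8 weeks at model building. Library C came from the normal colon of a healthy C57BL/6 mouse or mice. Library T1 came from colon with low-grade and library T3 from colon with high-grade intraepithelial neoplasia, also of C57BL/6 mice. The labels describe these as the AOM and DSS model: azoxymethane, a carcinogen, at 12 mg/kg into the peritoneum, then 3 cycles of 2.5% dextran sodium sulfate, an irritant of the colon lining, each of 7 days and followed by 14 days of water. No transgene or deletion is named, and the labels do not say how many mice entered a library.

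Leucine enters lymphocytes mainly through a pair of proteins, the transporter LAT1 encoded by Slc7a5 and its partner CD98 heavy chain encoded by Slc3a2, which brings LAT1 to the cell surface. Inside the cell, some sestrins, among them that encoded by Sesn2, bind leucine and hold back GATOR2 when leucine is scarce. The Rag GTPases on the lysosome then do not recruit mTORC1, the kinase complex that drives protein synthesis and growth. Folliculin with its partner FNIP1 acts on RagC and RagD in the same step, and 4E-BP1, encoded by Eif4ebp1, is a repressor of translation that mTORC1 switches off. Activated T cells and plasma cells are known for high amino acid uptake, and loss of FNIP1 is known to block B cell development in mice.

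The 3 libraries held between 5779 and 8566 barcodes and between 15898397 and 37208603 UMIs. Of these, 5580 barcodes in C, 5658 in T1 and 2635 in T3 had at least 1000 UMIs, at least 200 genes, at most 20% mitochondrial and under 1% haemoglobin UMIs. T3 stood apart: 1265 of its barcodes reached 1% haemoglobin, against 1 in C and 1 in T1, and its lymphocyte classes held haemoglobin transcripts at 161 to 344 CPM, the usual scaling of UMI counts to a common total, applied here to the summed UMIs of a class in a library. Ptprc, which encodes CD45, was found in 89.6% to 92.0% of kept barcodes. The labels call the mice male, but Xist was found in 81.6% to 89.0% of kept barcodes and Y-linked transcripts in at most 0.0380%. Between 35 and 39 barcodes were shared by any 2 libraries, at most 0.606% of either. Each condition is 1 library, so differences between C, T1 and T3 have no replicate check and carry no p-value, and their intervals cover counting error only.

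Classes were cut by marker transcripts. Resting B barcodes (1901 in C, 1554 in T1 and 511 in T3) had B lineage UMIs and no Crem, germinal centre or cycling UMI. Crem-positive B barcodes (399, 1003 and 199) had at least 1 UMI of Crem, which encodes a cAMP-responsive transcription factor. The T classes had T lineage UMIs and at least 1 UMI of the gene in their name. They were Cd4 T (358, 582, 484), Cd8b1 T (307, 288, 353), Foxp3 T (52, 224, 62) and Il17a T (17, 64, 24). The Foxp3 and Il17a gates did not ask for Cd4. A Cd4 UMI was found in 29, 151 and 33 Foxp3 T and in 10, 48 and 13 Il17a T barcodes. Trdc, a gamma-delta receptor gene barred from Cd4 T, was found in 4, 1 and 3 Il17a T barcodes. "Resting" describes that gate only: immediate early genes, known to be induced while tissue is being digested, summed to 7820 CPM in resting B of C, 4473 in T1 and 4396 in T3. Free RNA of Foxp3 and Il17a was low, since a Foxp3 UMI was found in at most 0.39% and an Il17a UMI in at most 0.45% of resting B barcodes of any library. Those barcodes were limited to at most 1 T lineage UMI by their gate. Free RNA of Cd4, Cd8b1 and Crem was not measured this way.

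The plasma gate, which asked for 5 Jchain UMIs and 5 UMIs of plasma cell genes, took barcodes of another kind as well. Of the 180 barcodes it took in C, 114 had under 10% immunoglobulin UMIs, and all 114 had at least 2 germinal centre UMIs. In T1 it took 96, of which 46 were under 10%, and 45 of those had germinal centre UMIs. The plasma class was therefore also cut at 10% immunoglobulin, a limit set after the values were seen, with the other barcodes passed to the B gates. This left 66, 50 and 2 plasma barcodes and 173, 110 and 11 germinal centre barcodes, called re-gated below, in place of 59, 65 and 11 germinal centre barcodes by the gate as first set. Immunoglobulin made up 53.4% of UMIs in re-gated plasma barcodes of C and 52.3% in T1, against 1.34% and 1.05% in resting B. The 2 plasma barcodes of T3 are too few for any statement.

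**Figure D1:**
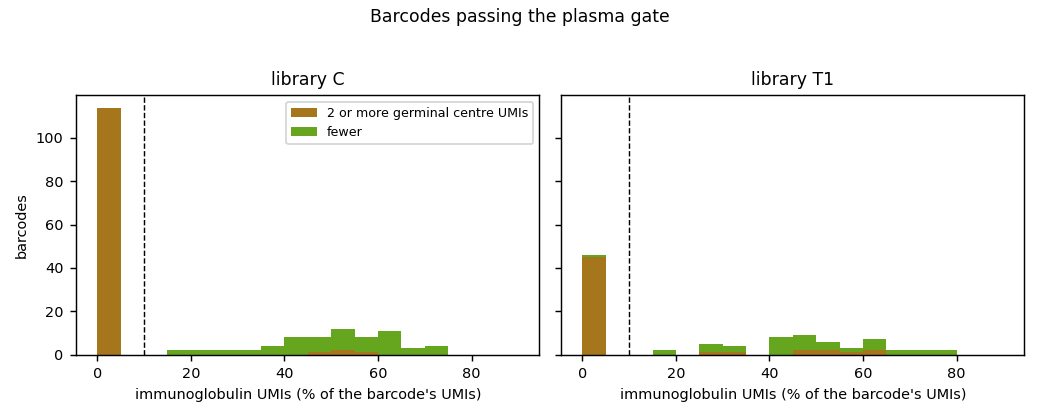
Histogram of the share of immunoglobulin UMIs (x axis, percent of a barcode's UMIs) in the barcodes of the plasma gate in C and T1 (y axis, number of barcodes), coloured by whether a barcode held at least 2 germinal centre UMIs; the dashed line stands at 10%. The barcodes fall into a group under the line, 114 in C and 46 in T1, and a broad group above it, 66 in C and 50 in T1.

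Slc7a5 (chr8:121881150-121907694 on GRCm38, gene span), the transporter subunit, was a low transcript, and it was higher in plasma barcodes than in resting B. Its level in resting B was 2.69 CPM in C, 3.55 in T1 and 4.86 in T3, from 24, 26 and 9 UMIs. In re-gated plasma barcodes it was 9.70 in C and 12.0 in T1, and in re-gated germinal centre barcodes 7.99 and 10.8, with no UMI among the 11 germinal centre barcodes of T3. Both classes lay above resting B in C and in T1. Because immunoglobulin takes up much of a plasma library, the level is also given without immunoglobulin and mitochondrial genes: 22.4 CPM in C and 26.8 in T1 for plasma Slc7a5, against 2.91 and 3.85 in resting B. Classes were tested against each other with edgeR on the summed UMIs, with the library as a block. Plasma barcodes had a log2 change of 2.81 ± 0.52 (SE, 2 libraries) over resting B (edgeR adjusted p = 3.94e-07), and 1.80 with the gate as first set (edgeR adjusted p = 0.00152). The germinal centre difference was not tested in all 3 libraries because counts were too low.

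Among T cells, Slc7a5 stood at 3.53, 4.65 and 8.67 CPM in Cd4 T of C, T1 and T3, and at 8.49, 10.1 and 11.1 CPM in Cd8b1 T. Cd8b1 T lay above Cd4 T in all 3 libraries, but the log2 change of 1.0 did not pass the test (edgeR adjusted p = 0.0714). Crem-positive B and Foxp3 T ranged from 1.96 to 6.14 CPM, and the 29.8 CPM of Il17a T in C rested on 3 UMIs. Between libraries, the resting B value differed by 0.40 on the log2 scale in T1 against C, with a 95% interval from -0.46 to 1.26, so no difference was detectable at this depth. In Cd4 T, T3 against C gave 1.30 from 21 and 8 UMIs, with an interval from 0.07 to 2.68 that excludes 0 but rests on fewer than the 50 UMIs asked for elsewhere.

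Slc3a2 (chr19:8706882-8723369), the CD98 heavy chain, was found at 159 to 198 CPM in resting B and gave the firmest values of the list. Re-gated plasma barcodes had 346 CPM in C and 199 CPM in T1. Without immunoglobulin and mitochondrial genes these Slc3a2 levels were 798 and 446 CPM, against 197 and 173 CPM in resting B. Re-gated germinal centre barcodes were lowest, at 94.0, 96.0 and 153 CPM. The plasma change over resting B was 1.66 ± 0.20 on the log2 scale (edgeR adjusted p = 1.73e-15). It was 0.31 and not called with the gate as first set (edgeR adjusted p = 0.111). The re-gated germinal centre change was -1.13 ± 0.17 (edgeR adjusted p = 2.82e-09), and -0.95 with the gate as first set (edgeR adjusted p = 1.53e-05). So the heavy chain rose in plasma and fell in germinal centre barcodes relative to resting B.

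In T cells the level of Slc3a2 was 240, 275 and 176 CPM in Cd4 T of C, T1 and T3, 215, 185 and 162 CPM in Cd8b1 T, and 287, 372 and 258 CPM in Foxp3 T. Foxp3 T lay above Cd4 T in every library, but the change was not called by the test. Il17a T, at 307, 421 and 329 CPM, likewise lay above Cd4 T in every library without being called. Over the libraries, the ranges of Cd4 T, Cd8b1 T, Crem-positive B (166 to 209 CPM) and resting B overlapped.

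Slc3a2 differed between libraries in opposite directions in resting B and Cd4 T. In resting B the log2 ratio of T1 to C was -0.20, with a 95% interval from -0.31 to -0.09, while in Cd4 T it was 0.20, from 0.05 to 0.35. In T3 against C the Cd4 T ratio was -0.45, from -0.63 to -0.26, and the resting B ratio 0.12, from -0.05 to 0.28. All of these are under 2-fold. In Cd8b1 T the ratio was -0.22 in T1 against C, the same as the median of all genes in that class (-0.22), and -0.41 in T3 against C, where that median was -0.12. Medians of all genes were also shifted in T3 against T1, by 0.16 in resting B and 0.13 in Crem-positive B.

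Slc7a6 (chr8:106168857-106198706), which encodes y+LAT2, another partner of CD98 that exchanges basic for neutral amino acids including leucine, showed no called difference in any class. Its level was 7.06, 6.55 and 7.57 CPM in resting B of C, T1 and T3 and 8.82, 9.83 and 9.09 CPM in Cd4 T. Over all classes of at least 50 barcodes the values lay between 2.99 and 14.7 CPM.

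**Figure D2:**
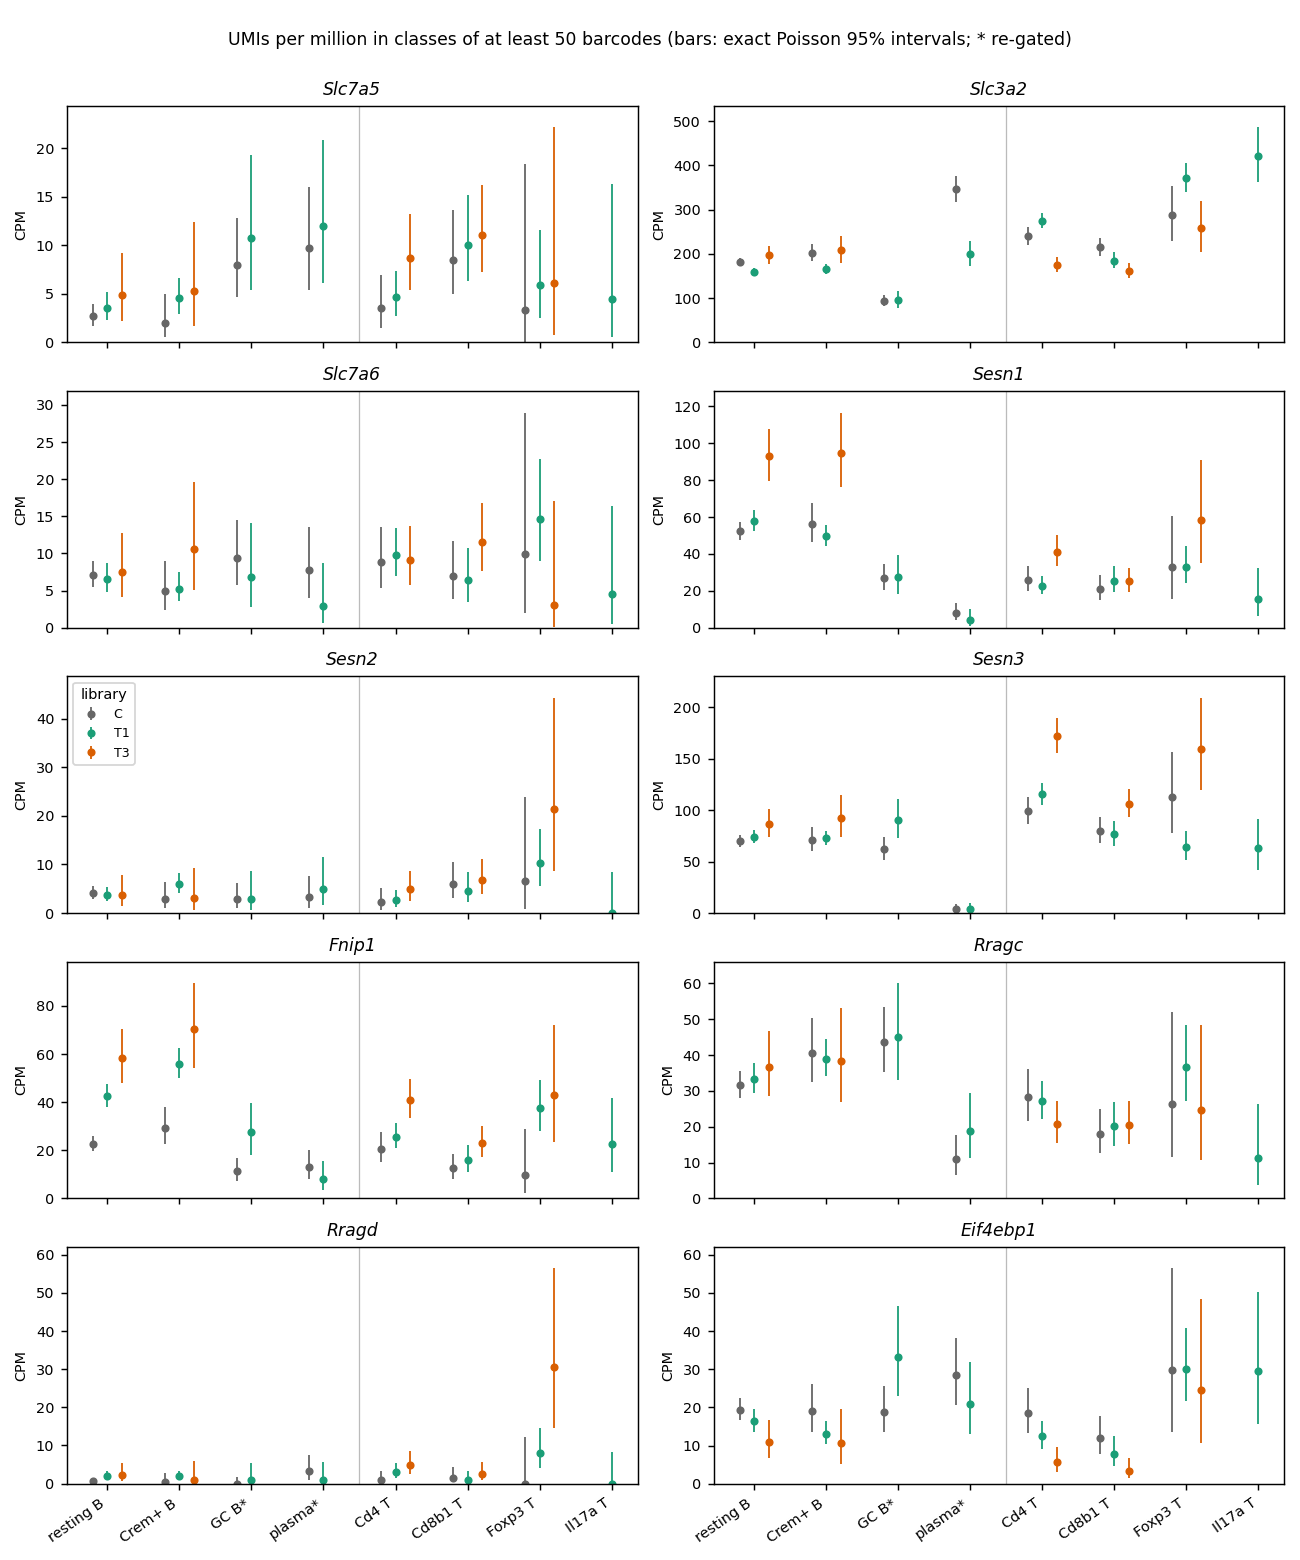
Level of each of the 10 genes in CPM (y axis, linear, with its own scale in each panel) by class (x axis) and library (C grey, T1 green, T3 orange), with exact Poisson 95% intervals that cover counting error only; classes with fewer than 50 barcodes in a library are left out and the starred classes are re-gated. Fnip1 in resting B stands at 22.5 CPM in C, 42.5 in T1 and 58.4 in T3, and Sesn3 is near 4 CPM in plasma and at 62.0 CPM or more in every other class drawn.

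Of the sestrins, Sesn1 (chr10:41809935-41908424) was higher in resting B than in the T classes. It stood at 52.5, 58.0 and 93.0 CPM in resting B of C, T1 and T3, from 468, 425 and 172 UMIs, and at 56.3, 49.9 and 94.8 CPM in Crem-positive B. Cd4 T had 26.0, 22.8 and 41.3 CPM, Cd8b1 T 21.0, 25.6 and 25.1 CPM and Foxp3 T 33.0, 33.1 and 58.3 CPM. Resting B was above all 3 of these T classes in each library, and Il17a T held Sesn1 UMIs in T1 only (15.9 CPM). Cd4 T against resting B gave a log2 change of -1.30 ± 0.13 (SE, 3 libraries, edgeR adjusted p = 3.73e-06).

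Sesn1 was lower again in the later B classes. Re-gated germinal centre barcodes had 26.8 CPM in C and 27.4 CPM in T1, and re-gated plasma barcodes 7.76 and 3.98 CPM. The germinal centre change was -1.30 ± 0.21 (edgeR adjusted p = 3.83e-08), but -0.61 and not called with the gate as first set (edgeR adjusted p = 0.0544). The plasma change was -2.11 ± 0.36 re-gated (edgeR adjusted p = 2.41e-08) and -2.01 with the gate as first set (edgeR adjusted p = 2.22e-05).

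Between libraries, Sesn1 was higher in T3 than in C by 0.82 on the log2 scale in resting B (95% interval 0.56 to 1.08). The same ratio was 0.75 in Crem-positive B (0.34 to 1.16) and 0.67 in Cd4 T (0.19 to 1.16), but 0.26 in Cd8b1 T (-0.33 to 0.87), where the interval includes 0. In T1 against C it was 0.14 in resting B, from -0.05 to 0.34, an interval that includes no difference. After thinning every barcode to 1000 UMIs, a Sesn1 UMI was found in 4.68%, 6.24% and 8.41% of resting B barcodes of C, T1 and T3.

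Sesn3 (chr9:14275067-14333101), another sestrin, was almost absent from plasma barcodes, and Cd4 T lay above resting B in every library. Re-gated plasma barcodes held 6 Sesn3 UMIs in C and 4 in T1, or 3.88 and 3.98 CPM, against 69.8 and 74.0 CPM in resting B. The log2 change was -3.16 ± 0.38 (edgeR adjusted p = 1.79e-15). With the gate as first set it was -0.94 (edgeR adjusted p = 0.000592). Re-gated germinal centre barcodes held 62.0 and 90.1 CPM in C and T1, and germinal centre against resting B was not called.

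Cd4 T held 99.2, 115 and 172 CPM of Sesn3 in C, T1 and T3, and Cd8b1 T 79.9, 76.8 and 106 CPM. Cd4 T was above resting B by 0.58 ± 0.13 (edgeR adjusted p = 0.00331), a call lost without the library block (0.0555). Cd8b1 T was below Cd4 T, with a log2 change of -0.39 ± 0.11 (edgeR adjusted p = 0.0427), but DESeq2 gave an adjusted p of 0.489 and each fit without 1 library also lost the call. Il17a T was below Cd4 T, at -0.92 ± 0.26 (edgeR adjusted p = 0.0349), with an adjusted p of 0.252 without C, 0.260 without T1 and 0.219 by DESeq2. The levels of Sesn3 in Il17a T were 39.7, 63.4 and 151 CPM, from 4, 28 and 22 UMIs.

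Sesn3 was also higher in T3 than in C in Cd4 T, by 0.80 on the log2 scale (95% interval 0.56 to 1.04), where a UMI was found in 8.94%, 9.45% and 15.1% of thinned barcodes of C, T1 and T3. With stricter gates this ratio was 0.51. Foxp3 T held 112, 64.7 and 160 CPM of the gene in C, T1 and T3, a log2 ratio of -0.80 in T1 against C (-1.38 to -0.18) and of 1.30 in T3 against T1 (0.78 to 1.81). Cd4 T barcodes of T3 also held 930 CPM of neutrophil transcripts, against 1.76 in C and 2.07 in T1, most of it in 2 barcodes. Without these, the Sesn3 ratio was 0.79.

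Sesn2 (chr4:132492032-132510501), the stress-induced sestrin, was low in all classes, at 4.04, 3.69 and 3.78 CPM in resting B. Foxp3 T had the highest values among classes of 50 barcodes or more: 6.61 CPM in C, 10.3 in T1 and 21.5 in T3, from 2, 14 and 7 UMIs. Foxp3 T was above Cd4 T (2.20, 2.59 and 4.96 CPM) in every library, with a log2 change of 1.75 ± 0.49 (edgeR adjusted p = 0.0301). The call rests on few UMIs: the adjusted p was 0.242 by DESeq2, 0.127 without the library block, 0.0922 without C and 0.0665 without T3.

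Fnip1 and Rragc were the members whose upstream sequence held the E-box CACGTG, the core letters bound by basic helix-loop-helix factors, a family that includes TFEB and TFE3, which folliculin and FNIP1 regulate through RagC and RagD. The 250 bases before the transcription start are shown for these genes, from RefSeq on GRCm38.p6, 5′ to 3′ on the plus strand, with the E-box in capitals. The Rragc window is chr4:123917183-123917432 and the Fnip1 window chr11:54437929-54438178.
Rragc: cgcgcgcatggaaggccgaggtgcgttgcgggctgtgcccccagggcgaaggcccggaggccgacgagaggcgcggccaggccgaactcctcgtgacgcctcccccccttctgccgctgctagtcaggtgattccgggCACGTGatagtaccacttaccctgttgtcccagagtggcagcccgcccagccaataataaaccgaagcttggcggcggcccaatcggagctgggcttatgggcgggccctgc
Fnip1: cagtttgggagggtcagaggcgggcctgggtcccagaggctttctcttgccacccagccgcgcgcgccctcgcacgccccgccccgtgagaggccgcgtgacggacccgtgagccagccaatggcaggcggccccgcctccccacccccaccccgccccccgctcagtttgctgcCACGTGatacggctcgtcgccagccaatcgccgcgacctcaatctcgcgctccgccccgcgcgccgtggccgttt
The E-box begins at -112 from the start in Rragc and at -75 in Fnip1. Windows of 300 bases, 250 before and 50 after the start, were at hand for 8 of the 10 genes, and the E-box, whose letters read the same on both strands, was in those of 2. It was in 7.15% of 32851 windows of all genes. No member window held the cAMP response element TGACGTCA (1.79% of all windows) or the amino acid response element TGATGNAA (3.97%). The FoxO letters GTAAACA were in 1 of the Sesn1 windows and in 3.65% of all. These motifs were searched on both strands, and a match is a run of letters, not a measured site.

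Fnip1 (chr11:54438199-54518235) gave the largest ratios to C in resting B and Crem-positive B among members with at least 50 UMIs there. In resting B it stood at 22.5 CPM in C (95% interval 19.5 to 25.9), 42.5 in T1 (37.9 to 47.4) and 58.4 in T3 (47.9 to 70.5), from 201, 311 and 108 UMIs. In Crem-positive B it stood at 29.4, 56.0 and 70.3 CPM. Both neoplastic libraries lay above C in both classes, with no overlap of the intervals. The log2 ratio to C in resting B was 0.91 in T1 (0.65 to 1.18) and 1.37 in T3 (1.02 to 1.72), and in Crem-positive B 0.93 (0.53 to 1.35) and 1.26 (0.73 to 1.79). After thinning to 1000 UMIs a Fnip1 UMI was found in 1.79%, 4.44% and 6.07% of resting B barcodes of C, T1 and T3, and unthinned in 9.15%, 16.2% and 16.6%. The resting B ratio of T3 to C ranged from 1.20 with TMM scaling to 1.42 with a floor of 500 UMIs. Immediate early transcripts in resting B, given above, were lower in T1 and T3 than in C, whereas median mitochondrial shares were 6.10%, 6.30% and 6.24%. The part of the former in the Fnip1 result was not tested.

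In Cd4 T and Cd8b1 T, Fnip1 was higher in T3 than in C, while the intervals of T1 against C included 0. Cd4 T had 20.7, 25.6 and 40.9 CPM and Cd8b1 T 12.5, 16.0 and 23.0 CPM in C, T1 and T3. T3 against C gave a log2 ratio of 0.98 in Cd4 T (0.47 to 1.51) and 0.88 in Cd8b1 T (0.17 to 1.63), and T1 against C 0.31 in Cd4 T. Foxp3 T had 9.91 CPM in C, which is 3 UMIs, 37.5 in T1 and 43.0 in T3, a log2 ratio of 1.92 in T1 against C with the wide interval 0.29 to 4.24.

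Between classes, Fnip1 was lower in Cd4 T than in resting B, with a log2 change of -0.61 ± 0.15 (edgeR adjusted p = 0.00520), with 0.0947 by DESeq2, 0.264 without the block and 0.151 without T1. It was higher in Crem-positive B than in resting B, with a log2 change of 0.40 ± 0.10 (edgeR adjusted p = 0.0219), in all 3 libraries. This call was lost by DESeq2 (0.222), without the block (adjusted p = 1) and without T1 (0.511), and when Crem-positive barcodes were picked after thinning to equal depth the change was 0.07 (0.953). Median depth in those classes was 4871 UMIs against 4556 in C, 5381 against 4735.5 in T1 and 4618 against 3623 in T3. Re-gated germinal centre barcodes were below resting B, with a log2 change of -0.92 ± 0.25 (edgeR adjusted p = 0.00121), a call lost by DESeq2 (0.0867), without C (0.250) and without T1 (0.151). It was also lost with the gate as first set (-0.54, edgeR adjusted p = 0.220). In plasma, Fnip1 was called lower with the gate as first set (-1.05, edgeR adjusted p = 0.00242) and not in re-gated barcodes (-0.45, 0.293).

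Rragc (chr4:123917446-123936997), encodes the Rag GTPase RagC. Its level was 31.6, 33.4 and 36.8 CPM in resting B of C, T1 and T3 and 28.2, 27.1 and 20.6 CPM in Cd4 T. Re-gated germinal centre barcodes held 43.7 CPM in C and 45.1 in T1 and re-gated plasma barcodes 18.9 CPM in T1 and less in C, and neither class was called against resting B. Cd4 T was below resting B, with a log2 change of -0.52 ± 0.14 (edgeR adjusted p = 0.00979), lost by DESeq2 (0.138) and without T1 (0.0935). None of its library ratios passed the 2-fold rule. An antisense gene overlaps an exon of Rragc and another one an exon of Slc7a5, and whether the authors' counting used strand is not given in the sources used here.

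Rragd (chr4:32983037-33022180), encoding RagD, was too low to test in any class contrast. Resting B held 6, 14 and 4 UMIs in C, T1 and T3. Its highest levels were in Foxp3 T, with 0 UMIs in C, 11 in T1 (8.08 CPM, 4.03 to 14.5) and 10 in T3 (30.7 CPM, 14.7 to 56.4). The 95% interval of the 0 in C reached 12.2 CPM, so T1 could not be told from C. The T3 interval, from 14.7 CPM, lay above that limit. Cd4 T held 2, 12 and 12 Rragd UMIs in C, T1 and T3.

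Eif4ebp1 (chr8:27260329-27276674), the translational repressor, was higher in re-gated plasma and in Foxp3 T. Levels in re-gated plasma were 28.5 CPM in C and 20.9 in T1, against 19.4 and 16.4 CPM in resting B, and without immunoglobulin and mitochondrial genes 65.6 and 46.9 CPM against 21.0 and 17.8 CPM. The log2 change was 1.49 ± 0.30 (edgeR adjusted p = 2.79e-06). With the gate as first set it was 0.71 (edgeR adjusted p = 0.0182), which DESeq2 did not call (0.194). Foxp3 T had 29.7, 30.1 and 24.5 CPM, against 18.5, 12.4 and 5.78 CPM in Cd4 T, and lay above it in every library, by 1.07 ± 0.31 (edgeR adjusted p = 0.0354). This call was lost by DESeq2 (0.256), without the block (0.203), with stricter gates (0.0796) and without C (0.0582), T1 (0.301) or T3 (0.0628). Il17a T, at 39.7, 29.4 and 34.2 CPM, also lay above Cd4 T in every library, with a log2 change of 1.27 that was not called (edgeR adjusted p = 0.122).

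Eif4ebp1 was lower in T3 than in C in Cd4 T, from 42, 48 and 14 UMIs in C, T1 and T3. T3 against C gave a log2 ratio of -1.68 (95% interval -2.67 to -0.78), and -1.89 without the 2 barcodes rich in neutrophil transcripts. With stricter gates it was -1.21 from 29 UMIs, under the 50 asked for. Resting B was also lower in T3, at -0.84 (-1.59 to -0.17), from 173, 120 and 20 UMIs.

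**Figure D3:**
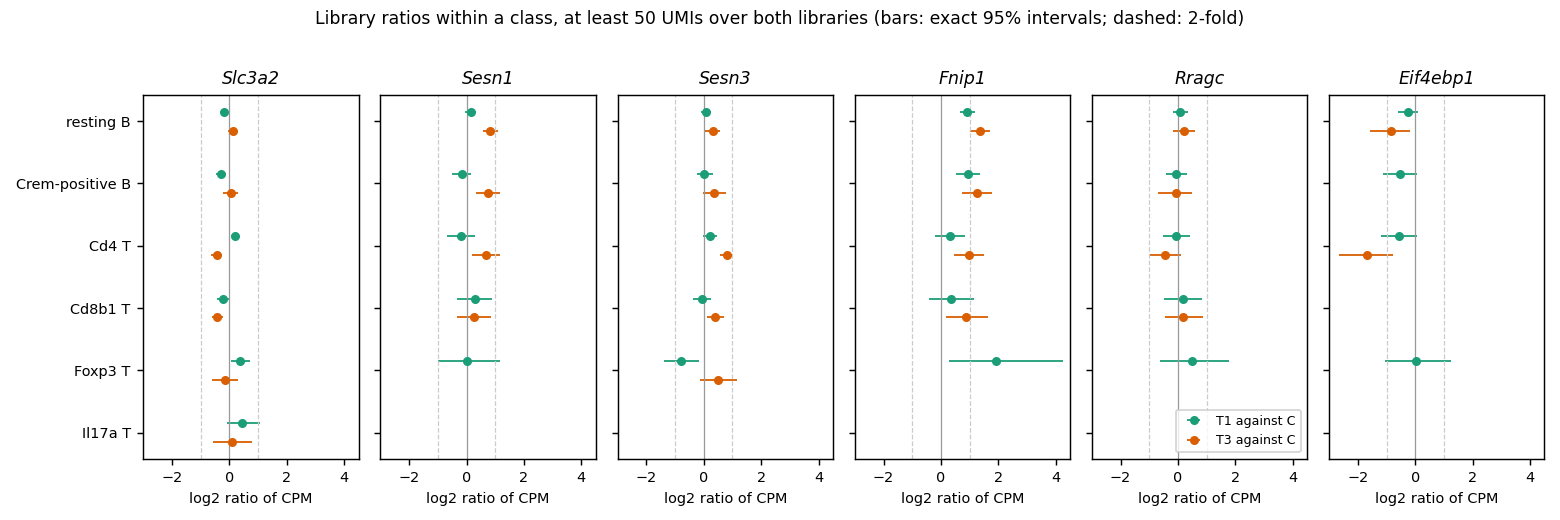
Log2 ratio of CPM of T1 to C (green) and T3 to C (orange), on the x axis, for the 6 best-counted members by class (y axis), drawn where both libraries together held at least 50 UMIs; bars are exact 95% intervals for counting error and dashed lines mark 2-fold. Fnip1 points lie to the right of 0 in each class drawn, germinal centre B and plasma are not drawn, Slc3a2 points of the classes drawn stay within 2-fold, and Eif4ebp1 in Cd4 T of T3 lies beyond 2-fold on the left (-1.68).

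Member values that passed the rule for libraries or the test between classes were counted over the list, with the share of all genes beside them. Past the rule for libraries (at least 2-fold, at least 50 UMIs and an interval that excludes 0) were 1 of 42 pairs of member and class in T1 against C, where 2.93% of all gene and class pairs passed. In T3 against C it was 4 of 31 pairs (3 higher and 1 lower), against 7.10% of all, and in T3 against T1 4 of 35 (3 higher and 1 lower), against 6.51%. One of the 4 in each of the last comparisons is Slc3a2 in the 2 plasma barcodes of T3. The other higher pairs in T3 against C are Fnip1 in resting B and in Crem-positive B. Fnip1 in B cells was known when the list was chosen, so that count is not independent of the choice. The pair in T1 against C is Fnip1 in Foxp3 T, which was higher and had 3 UMIs in C. The comparisons share libraries and are not independent.

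In the class contrasts, 1 of 9 members tested was called in Crem-positive B against resting B (1 higher), where 4.08% of all genes were. Re-gated germinal centre B had 3 of 7 called, all lower, against 48.9% of all genes, and 1 of 7 with the gate as first set, against 29.4%. Re-gated plasma had 5 of 9 (3 higher and 2 lower) against 43.1%, and 5 of 9 (2 higher and 3 lower) with the gate as first set against 49.0%. Cd4 T against resting B had 4 of 9 (1 higher and 3 lower) against 43.8%. The T class contrasts with Cd4 T had 1 of 9 in Cd8b1 T (lower; 8.74% of all genes), 2 of 9 in Foxp3 T (higher; 11.6%) and 1 of 7 in Il17a T (lower; 6.35%). Shares in the germinal centre, plasma and Cd4 T contrasts were near the background or under it.

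**Figure D4:**
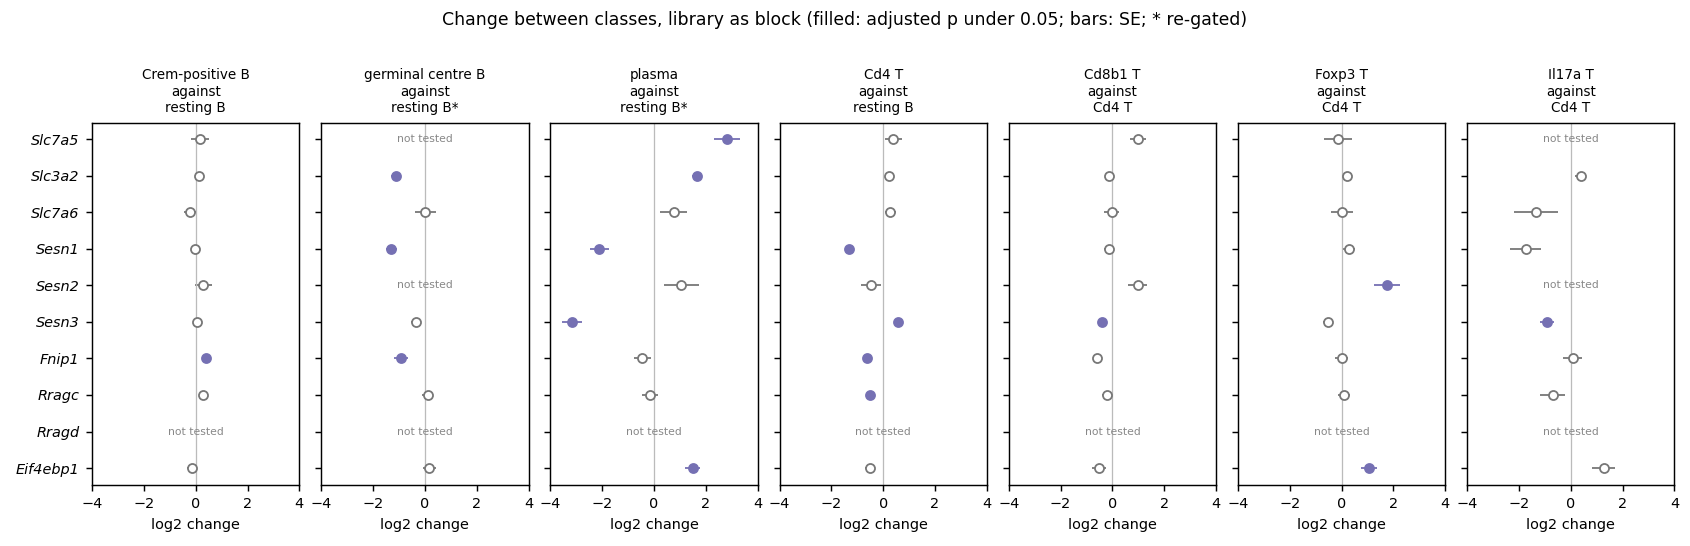
Log2 change (x axis) ± SE of each member (y axis) in the 7 class contrasts, fitted with edgeR on UMI sums with the library as a block; filled points have an adjusted p under 0.05, "not tested" marks genes under the count filter, and starred panels use re-gated classes. The plasma panel has the widest spread, from -3.16 for Sesn3 to 2.81 for Slc7a5, and the Crem-positive panel the narrowest.

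The rest of the pathway was followed with lists of related genes. In re-gated plasma, where 43.1% of all genes were called, the ATF4 programme, genes of amino acid synthesis and stress that the factor ATF4 is known to switch on, had 7 of 10 tested members higher and 1 lower. Its median log2 change was 2.0 against -0.08 for all genes, and with the gate as first set it had 7 higher and 3 lower. Asns, asparagine synthetase, rose by 7.15, the transcription factor Atf5 by 3.34 and Phgdh, of serine synthesis, by 3.01. Chac1, a glutathione-degrading enzyme, was also called, with 24 UMIs in plasma of C and 8 in T1 and none in resting B of either, so no fold is given.

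In the other lists the share called in re-gated plasma ran from 1 of 7 to 4 of 7 genes, around that of all genes. Of 8 mTORC1 and TSC genes, 3 were called (Tbc1d7 2.37, Mtor 1.23 and Rheb 0.85), against 1 with the gate as first set. Of 10 other amino acid carriers, 2 rose, Slc43a1, a leucine carrier, by 3.41 and Slc7a7, a partner of CD98, by 1.41, and 3 fell, among them Slc38a1 (-1.84) and Slc15a4 (-1.08); with the gate as first set it was 1 and 4. Branched-chain breakdown genes had 3 of 11 higher, Bcat1 (4.52), Bckdk (2.84) and Bcat2 (1.81), and 2 lower, with Ivd at -1.31, against 2 and 1 with the gate as first set. Of 11 GATOR and KICSTOR genes, 3 rose (Sec13 1.83, Wdr24 1.64 and Itfg2 1.18) and Depdc5 fell by 2.26, against 2 and 1. In the list of other Rag, Ragulator and folliculin genes 4 of 7 were called, Lamtor4 (1.61), Lamtor2 (0.65) and Lamtor5 (0.59) higher and Flcn, encoding folliculin, lower (-1.29), against 2 and 1 of 8 with the gate as first set. Of 7 mTORC1 outputs, Tfeb was called (-1.24), against Rps6kb1 (0.60) with the gate as first set. Among the re-gated changes of these lists named here, the SE was largest for Bcat1 (0.97), Slc43a1 (0.88) and Tbc1d7 (0.70). Their size is the least firm.

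In re-gated germinal centre B, where 48.9% of all genes were called, the ATF4 programme had 4 of 7 tested genes higher and 3 lower, and 4 and 2 with the gate as first set. Psat1, Mthfd2 and Shmt2, of serine and one-carbon metabolism, changed by 2.97, 2.32 and 1.61, and the stress gene Ddit3 by -1.39. Several other lists lost calls with the gate as first set. The Ragulator subunits Lamtor5 (0.72), Lamtor4 (0.63) and Lamtor1 (0.44) were called higher, 3 of 7 in their list, and Seh1l (0.95) and Sec13 (0.50), 2 of 9 GATOR and KICSTOR genes, but none of these 5 was called with the gate as first set. The carriers Slc38a2 (-0.92) and Slc38a1 (-0.42) fell, 2 of 8, and Slc38a2 alone with the gate as first set. Of 7 mTORC1 outputs, Rps6kb1 (0.77), Eif4e (0.43) and Eif4ebp2 (0.43) were higher and Tfe3 (-0.78) lower, against 2 higher with the gate as first set. Of 9 branched-chain breakdown genes, Bckdk was higher (1.31) and Ivd lower (-1.32), and Ivd alone with the gate as first set.

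In Cd4 T against resting B, where 43.8% of all genes were called, 6 of 9 carriers were lower and 1 higher. Slc15a4 was at -3.02 and the lysosomal arginine sensor Slc38a9 at -1.19, and Slc43a2 rose by 0.61. Slc7a7 was also called lower, with 1 UMI in Cd4 T of C, 1 in T1 and 0 in T3, so no fold is given. Branched-chain breakdown had 1 of 10 higher, Bcat2 (0.70), and 3 lower, Bckdhb (-1.16), Ppm1k (-0.59) and Bckdha (-0.51). The ATF4 programme had 2 of 7 higher, Mthfd2 (1.95) and Ddit4 (1.34), and 2 lower, Atf4 (-0.78) and Ddit3 (-0.69). Of 7 mTORC1 outputs, Ulk1 (1.56) and Eif4ebp2 (0.63) were higher and Tfeb lower (-2.46). Of 7 other Rag, Ragulator and folliculin genes, Rraga (-1.39) and Flcn (-0.82) were lower, of 11 GATOR and KICSTOR genes Depdc5 (-1.03) and Itfg2 (-0.62), and of 7 mTORC1 and TSC genes Mlst8 (-0.96).

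In the other contrasts few list genes were called, as of all genes 4.08% were called in Crem-positive B, 8.74% in Cd8b1 T, 11.6% in Foxp3 T and 6.35% in Il17a T. In Crem-positive B, Rheb rose by 0.30 and Ddit4, an mTORC1 inhibitor, fell by 0.59. In Cd8b1 T against Cd4 T, the autophagy kinase Ulk1 (-1.0) and Ddit4 (-0.54) were lower and Shmt2 (0.85) and Phgdh (0.72) higher. In Foxp3 T against Cd4 T, Lamtor4 (0.70) and Rheb (0.53) were higher and Ddit3 (-0.66), Atf4 (-0.56), Slc38a1 (-0.54) and Slc38a2 (-0.46) lower. In Il17a T against Cd4 T, the glutamine carrier Slc1a5 was higher (0.85).

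Between libraries, the list genes past the rule in resting B of T3 against C, where 4.77% of all genes were past it, were Slc7a1 (1.02), Mccc1 (1.07), Tsc1 (1.06) and Lars2 (1.18), which were higher, and Rraga (-1.20) and Ddit3 (-1.27), which were lower.

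The leucyl-tRNA synthetases load leucine on its tRNAs. Lars, the cytosolic enzyme, rose by 1.47 in re-gated plasma (edgeR adjusted p = 3.21e-07) and by 0.68 with the gate as first set (edgeR adjusted p = 0.00994). It was not called in germinal centre B (0.20, edgeR adjusted p = 0.516). Lars2, the mitochondrial enzyme, depended on the gate. Its change in germinal centre B was -0.51 re-gated (edgeR adjusted p = 0.00265) and 0.04 with the gate as first set (edgeR adjusted p = 0.860). In plasma it was 0.21 re-gated (edgeR adjusted p = 0.393) and -0.55 with the gate as first set (edgeR adjusted p = 0.0118). In Foxp3 T, Lars2 was below Cd4 T (-0.53, edgeR adjusted p = 0.00270). Lars2 stood at 421 CPM in resting B of C, 781 in T1 and 956 in T3, and Lars at 24.9, 22.4 and 33.0 CPM.

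Genes most like a member were named by the correlation of log2(CPM + 5) over 20 sums of class and library, as a description over sums that share libraries and depth. For Sesn1 these were Rnf145 (r = 0.94), Gpcpd1 (0.93), Aff4 (0.92), Jmjd1c (0.91) and Ddx6 (0.91). For Sesn3 they were Cep350 (0.91), Nr2c2 (0.91), Tnrc6a (0.90), Ablim1 (0.89) and Usp25 (0.89), and for Fnip1 Lemd3 (0.90), Csnk1g3 (0.89), Cyth1 (0.88), Lats2 (0.86) and Gpbp1 (0.85). For Slc7a5 they were Erh (0.75), Paics (0.74), Shmt2 (0.74), Tubb5 (0.73) and Mcm7 (0.73), of which Mcm7 is a DNA replication factor and Paics makes purines. With re-gated classes 2 of 5 were the same for Sesn1, 2 for Sesn3, 1 for Fnip1 and 0 for Slc7a5, so the names depend on the gates. Among the members themselves, Rragd and Sesn2, both low transcripts, had the highest r (0.79, and 0.81 re-gated), followed by Fnip1 and Sesn1 (0.70, and 0.80 re-gated).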

How the data were processed

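CD45+ colon leukocytes were measured in 3 libraries, 1 per condition. The deposited values are raw UMI counts, whole numbers for each gene in each barcode. Cell Ranger 3.1.0, Seurat 3.1.4, CASAVA 1.8 and the build GRCm38 appear in the submitters' processing notes. For gene annotation, introns and strand, handling is not given in the sources used here. The lowest total of a deposited barcode was 500 UMIs. The members, lists, gates and tests were chosen with earlier results of these data known, and Fnip1 in B cells was among those results.

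UMIs were summed over barcodes of a class in a library and given as CPM, with exact Poisson 95% intervals. Doublets were not called; barcodes with B and T lineage UMIs fell out of the gates (491, 445 and 94 in C, T1 and T3). Shares of barcodes were computed after thinning to 1000 UMIs. Classes were compared over libraries with edgeR 4.0.16 (quasi-likelihood, TMM, filterByExpr, library as block, Benjamini-Hochberg adjustment over all genes tested, threshold 0.05), in R 4.3.3. A class needed at least 10 barcodes in a library to enter a fit. The same libraries give both classes, so the block pairs them by source. P-values rest on the spread over 3 libraries of different condition, pooled in part over genes. The SE of a log2 change is its absolute value divided by the square root of the F statistic. It shares this pooling and is not a spread between libraries alone. Plasma fits had only 2 libraries, C and T1, and 1 residual degree of freedom. Germinal centre fits had 3 libraries and 2 residual degrees of freedom. The p-values of plasma and germinal centre fits thus rest largely on the pooled spread, and a smaller p-value re-gated is not a firmer result. Library ratios have exact conditional intervals and no test. DESeq2 1.42.0 was an alternative, and the edgeR and ratio steps were checked on simulated data. All 10 members were named, and from each pathway list up to 4 genes with the largest change among those called in a class contrast, or past the rule in resting B of T3 against C. Promoter windows came from RefSeq. Tables were handled with Python 3.11.15, numpy 2.4.6, scipy 1.17.1 and pandas 2.3.3.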

Additional observations from a re-analysis of the deposited data

Results flagged for a closer look

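Slc3a2, the CD98 heavy chain, stood out because resting B and Cd4 T differed in opposite directions between the same libraries. In T1 against C the log2 ratio of CPM was -0.196 in resting B and 0.197 in Cd4 T. In T3 against T1 it was 0.312 in resting B and -0.644 in Cd4 T. The medians of all genes in T3 against T1 were 0.159 in resting B and -0.068 in Cd4 T. The Slc3a2 ratios are not corrected for these shifts, so at least part of the resting B value is shared with genes at large. The TMM factor of resting B was higher in T3 than in T1, so TMM scaling also lowers the T3 against T1 ratio there. That ratio may be largely a matter of scaling, and its direction is not firm. The opposite directions rest mainly on T1 against C. With 1 library per condition, the difference between the classes was not tested.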

How the results depend on the processing

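Counts of called genes moved with the tool, the block and the gates. In Crem-positive B against resting B, 372 genes were called, but 158 by DESeq2, 3 with no replicate block, 122 with the Crem gate on thinned counts and 138 to 469 when each library was left out. In germinal centre B the 2145 became 1240 by DESeq2, 4104 re-gated, 3631 re-gated with no replicate block and 1089 to 2427 without 1 library, or up to 4946 re-gated. DESeq2 called 2549 of plasma genes in place of 4910, and 1988 re-gated. In Cd4 T against resting B it called 2595 in place of 4077, and 2641 to 4919 were called without 1 library. In Cd8b1 T the 759 became 295 by DESeq2, 1342 without the filter on low counts, 120 with no replicate block and 565 to 814 without 1 library. In Foxp3 T the 978 became 508 by DESeq2, 392 with no replicate block, 626 with stricter gates and 518 to 988 without 1 library, and in Il17a T the 494 became 308 and 115 to 473. Causes were not tested.

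Pairs past the library rule in T1 against C numbered 2 with TMM scaling, with a minimum of 20 UMIs, re-gated, and re-gated without immunoglobulin and mitochondrial genes, and 0 with stricter gates. In T3 against C they numbered 7 with a minimum of 20 UMIs, and in T3 against T1 2 with stricter gates. With the 10% mitochondrial limit 1 of 39 pairs passed in T1 against C. That pair was lower, whereas the pair in the main count was higher. Slc3a2 in the 2 plasma barcodes of T3 reversed to -0.14 against C when re-gated and scaled without immunoglobulin and mitochondrial genes. No other library ratio of a member that was called reversed. No paired analysis was possible because each condition is 1 library, for comparisons between libraries. The 500 UMI floor, the 10% mitochondrial, 0.1% haemoglobin and 0.1% neutrophil limits ended no member's call in the class contrasts. Fnip1 in germinal centre B by the gate as first set was called with the 10% mitochondrial limit (adjusted p = 0.0240). Depth limits Slc7a5, Sesn2 and Rragd most.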

Other observations

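Barcodes outside the 8 classes also held member transcripts, given here as values. In barcodes with more than 20% mitochondrial UMIs, which were left out, Fnip1 stood at 48.2 CPM in C, 51.3 in T1 and 68.4 in T3, and Sesn1 at 62.3, 66.5 and 84.4 CPM. Sesn3 there stood at 106, 99.3 and 163 CPM. In T3 barcodes with at least 1% haemoglobin, Slc3a2 stood at 126 CPM and Fnip1 at 23.7 CPM.

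Barcodes with at least 10 UMIs of myeloid genes held Eif4ebp1 at 81.7, 82.8 and 121 CPM in C, T1 and T3, above each lymphocyte class of at least 50 barcodes, and no Sesn3 UMI in any library. In T3 these barcodes held neutrophil genes at 153671 CPM, above their 14186 CPM of myeloid genes, whereas C and T1 had 5513 and 7411 CPM of neutrophil genes, so the T3 group is not of the same kind. The 44 T3 barcodes with at least 50 UMIs of neutrophil genes held Eif4ebp1 and Fnip1 at 154 CPM each and Sesn2 at 76.9 CPM, with no Sesn1 or Sesn3 UMI. These groups are small, at most 44 barcodes in a library.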
